A study of Mus musculus with 10 samples.

Results

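Ido2, Sectm1b, Flrt3, Fam49a and 3425401B19Rik are 5 of the 29527 genes measured in bulk RNA of the dissected pituitary intermediate lobe (IL). They were selected on the measured values described here, since their expression in p27-/-;Sox2+/- mice differed both from wild type (WT) and from p27-/- mice, while p27-/- and WT did not differ past the same threshold. The table held 10 samples, with 1 library per mouse: 4 WT, 3 p27-/- and 3 p27-/-;Sox2+/-, all labelled 2 to 3 months of age. In p27-/- mice both copies of Cdkn1b, the gene of the cell cycle inhibitor P27, are inactive in every cell. In p27-/-;Sox2+/- mice 1 copy of Sox2, which encodes a transcription factor of pituitary stem cells and melanotrophs, is lost in addition. Both alleles are constitutive, so that no cell type is targeted. The methods describe dissected IL of males and females, with the sex of each sample not given by the labels. The study's supplement lists 2 females and 2 males for WT, and 2 females and 1 male for each of the mutant genotypes. Mice with the Sox2 deletion and intact p27 were not analysed here, so that a shift in p27-/-;Sox2+/- samples could not be split into an effect of Sox2 dosage alone and an effect that needs the loss of p27.

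The IL consists mainly of melanotrophs, endocrine cells that express Pomc and the factor Pax7, and holds a small population of stem cells. SOX2 is expressed in the stem cells and, at lower levels, in the melanotrophs. P27 is known to repress Sox2, and mice without P27 develop tumors of this lobe. The 5 genes belong to distinct pathways. Ido2 encodes an indoleamine 2,3-dioxygenase, an enzyme of tryptophan breakdown to kynurenine, related to IDO1. Sectm1b encodes a secreted and transmembrane protein of the family whose human member SECTM1 binds the T cell receptor CD7. Flrt3 encodes a leucine-rich repeat membrane protein that binds latrophilins, UNC5 receptors and FGF receptors in cell adhesion and axon guidance. Fam49a, now also called Cyria, encodes a protein that binds the GTPase RAC1 and restrains the WAVE complex in actin remodelling. 3425401B19Rik, with the RefSeq synonym Cefip, encodes a cardiac-enriched protein that interacts with FHL2 at the muscle Z-disc.

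The values are log2 normalized expression, so that a difference of 1 is a doubling, and they are not corrected for gene length. A gene was called when its adjusted p-value in limma was under 0.05, among 17268 genes with a mean of at least 10 on the linear scale, and all 5 genes were among those tested. The adjusted p-values of the 5 genes served to choose them, and their differences between genotypes are therefore described without a test. Over all tested genes, 468 were called in p27-/-;Sox2+/- against WT (2.71%, with 0.828% higher and 1.88% lower), 25 in p27-/-;Sox2+/- against p27-/- (0.145%, with 0.0811% higher and 0.0637% lower) and 1343 in p27-/- against WT (7.78%, with 3.16% higher and 4.62% lower). The comparisons share samples. Against WT, 122 genes were called in p27-/-;Sox2+/- and not in p27-/-, and 6 genes (0.0347%) also differed between the mutants. The sixth, ENSMUSG00000105265, had mean log2 values of 8.73 in WT, 8.55 in p27-/- and 7.75 in p27-/-;Sox2+/- samples. The symbol table used here does not name it, and the study's own annotation names it Sox2ot, a noncoding transcript that overlaps Sox2, the gene deleted on 1 allele in these samples. Cdkn1b, which checks the p27 labels, had mean log2 values of 8.61 ± 0.19 over the 4 WT mice, 8.18 ± 0.12 over the 3 p27-/- mice and 7.89 ± 0.19 over the 3 p27-/-;Sox2+/- mice (each ± SD, limma adjusted p = 0.0470 and 0.00854 against WT). Sox2 had means of 7.46 ± 0.20, 7.28 ± 0.19 and 7.0 ± 0.10 (± SD, for n = 4, 3 and 3 mice). Sox2 was lower in each p27-/-;Sox2+/- sample than in every other sample, but passed the threshold neither against WT (limma, adjusted p = 0.0811) nor against p27-/- (limma, adjusted p = 0.791).

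Because 4 of the 5 genes rose and 1 fell in the same samples, the sequences before their start sites were compared. The set of promoter sequences used here, on GRCm38, held a window for 4 of them and none for Ido2. The stretches printed are those of the 250 bases before the start, 5′ to 3′, that lie outside the gene's own span. The window of 3425401B19Rik lies inside its span and is not printed. Capitals mark the GC box GGGCGG, a motif bound by SP factors, searched on both strands with overlaps allowed.
Sectm1b (GRCm38, chr11:121063586-121063819, - strand): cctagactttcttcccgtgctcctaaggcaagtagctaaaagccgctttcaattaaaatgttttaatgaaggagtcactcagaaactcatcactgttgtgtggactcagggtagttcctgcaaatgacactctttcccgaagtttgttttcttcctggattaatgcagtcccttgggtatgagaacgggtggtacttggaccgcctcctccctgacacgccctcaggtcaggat
Flrt3 (GRCm38, chr2:140671477-140671726, - strand): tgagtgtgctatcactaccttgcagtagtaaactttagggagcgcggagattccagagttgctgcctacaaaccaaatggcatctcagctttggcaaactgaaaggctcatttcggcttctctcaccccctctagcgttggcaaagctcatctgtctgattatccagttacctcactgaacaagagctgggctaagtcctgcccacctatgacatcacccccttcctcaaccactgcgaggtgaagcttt
Fam49a (GRCm38, chr12:12261927-12262133, + strand): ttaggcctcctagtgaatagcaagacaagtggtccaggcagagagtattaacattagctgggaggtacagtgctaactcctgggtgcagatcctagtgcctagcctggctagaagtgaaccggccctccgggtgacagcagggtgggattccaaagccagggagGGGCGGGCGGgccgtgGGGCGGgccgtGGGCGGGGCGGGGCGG
Fam49a, the gene that fell, had 6 matches, some of them overlapping, to GGGCGG between 86 and 49 bases before its start, and the other 3 genes had 0. The motif occurs in 33% of 32536 promoter windows of the same length. The Fam49a window had a GC content of 64.8% and 14 CpG dinucleotides, compared with 48.4% and 6 for Sectm1b, 50% and 5 for Flrt3, and 45.6% and 6 for 3425401B19Rik. The medians of all windows were 52.4% and 6. None of the 4 windows held ACAAAG or ACAATG, the core letters of SOX sites, which 25% of all windows hold on either strand. None held the interferon-stimulated element (2.98% of all windows) or TATAAA (12.3%). GGGCGG and TATAAA were added to the search after the data were seen.

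Ido2 (ENSMUSG00000031549, chromosome 8, 24531892 to 24576414 of GRCm38) had the largest shift of the 5 genes. Its log2 values were 5.60, 6.12 and 5.44 in p27-/-;Sox2+/- samples, 4.68, 4.09 and 4.5 in p27-/- samples and 4.13, 4.25, 4.14 and 4.17 in WT samples. Every p27-/-;Sox2+/- sample thus lay above every other sample, the lowest of them 0.77 above the highest p27-/- sample and 1.19 above the highest WT sample. The means were 5.72 ± 0.35, 4.42 ± 0.30 and 4.17 ± 0.06 (± SD, for n = 3, 3 and 4 mice). The log2 fold change was 1.55 (SE 0.16) against WT, or 2.92-fold, and 1.3 (SE 0.17) against p27-/-, or 2.46-fold. The p27-/- samples were not of a piece, since 2 lay above all WT samples and 1 below all of them, and their mean differed from WT by 0.25 (SE 0.16). Ido2 also varied most within genotypes, with a pooled SD of 0.25 compared with 0.09 to 0.17 for the other 4 genes.

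Sectm1b (ENSMUSG00000039364, chromosome 11, 121053423 to 121063585) had log2 values of 4.91, 4.84 and 5.01 in p27-/-;Sox2+/- samples, 4.16, 4.29 and 4.11 in p27-/- samples and 4.01, 4.17, 3.95 and 4.11 in WT samples. The 3 p27-/-;Sox2+/- samples formed a narrow group above all others, 0.55 above the highest p27-/- sample, and the p27-/- and WT samples overlapped. The means were 4.92 ± 0.09, 4.18 ± 0.09 and 4.06 ± 0.10 (± SD, for n = 3, 3 and 4 mice). The log2 fold change was 0.86 (SE 0.10) against WT, or 1.81-fold, and 0.74 (SE 0.10) against p27-/-, or 1.67-fold. Differences between genotypes made up 95.7% of the sum of squares of Sectm1b over the 10 samples, the largest share of the 5 genes. All 5 were chosen for differing between these genotypes, so that a high share describes the choice.

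Flrt3 (ENSMUSG00000051379, chromosome 2, 140658198 to 140671476) lies within the span of the longer gene Macrod2, and the counting did not use strand, so that reads from introns of Macrod2 cannot be told apart from reads of Flrt3. Its log2 values were 9.14, 9.34 and 9.40 in p27-/-;Sox2+/- samples, 8.86, 8.50 and 8.49 in p27-/- samples and 8.68, 8.61, 8.72 and 8.57 in WT samples. The p27-/-;Sox2+/- samples did not overlap with the others, but the closest p27-/- sample, replicate 1, was only 0.28 below them. The log2 fold change was 0.65 (SE 0.11) against WT, or 1.57-fold, and 0.68 (SE 0.12) against p27-/-, or 1.60-fold, while p27-/- and WT differed by -0.03 (SE 0.11). Macrod2 itself, with means of 8.35 ± 0.20 over the 4 WT mice, 8.61 ± 0.08 over the 3 p27-/- mice and 8.48 ± 0.16 over the 3 p27-/-;Sox2+/- mice (each ± SD), was not called in either comparison (limma, log2 fold change 0.13, adjusted p = 0.616 against WT, and -0.13, adjusted p = 0.982 against p27-/-).

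3425401B19Rik (ENSMUSG00000071540, chromosome 14, 32659118 to 32707825) had log2 values of 5.54, 5.74 and 5.76 in p27-/-;Sox2+/- samples, 4.91, 5.14 and 4.75 in p27-/- samples and 5.0, 4.80, 4.95 and 4.96 in WT samples. The p27-/-;Sox2+/- samples lay 0.41 or more above all others, and the p27-/- samples spread on both sides of WT. The means were 5.68 ± 0.12, 4.93 ± 0.19 and 4.93 ± 0.09 (± SD, for n = 3, 3 and 4 mice). The log2 fold change was 0.75 (SE 0.12) against WT and 0.75 (SE 0.13) against p27-/-, in each case 1.68-fold. The gene overlaps the long noncoding RNA Gm28651, whose reads could not be separated without strand. As its product is a muscle protein, the markers of skeletal muscle were examined beside it. The summed linear level of 6 muscle genes was 54.7 to 85.4 in p27-/-;Sox2+/-, 42.3 to 50.7 in p27-/- and 44.6 to 49.1 in WT samples. Only Myh4, which encodes a myosin heavy chain, passed the filter on low values, and Acta1, the skeletal muscle actin gene, was below 0 on the log2 scale in all 10 samples. Its log2 values were 5.62, 5.36 and 6.18 in p27-/-;Sox2+/- samples, against 4.92 to 5.26 in p27-/- and 5.03 to 5.22 in WT samples, and it was called in neither comparison (limma, adjusted p = 0.0668 against WT and 0.292 against p27-/-). Myh4 made up most of the sum. The other 5 muscle genes had log2 values of at most 2.59, and for each of them the p27-/-;Sox2+/- samples overlapped with the other samples. The part of muscle RNA in the values of 3425401B19Rik was not tested.

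Fam49a (ENSMUSG00000020589, chromosome 12, 12262134 to 12380965) was the only one of the 5 genes that was lower in p27-/-;Sox2+/- samples. Its log2 values were 10.55, 10.48 and 10.24 in p27-/-;Sox2+/- samples, 11.20, 10.96 and 11.32 in p27-/- samples and 11.11, 10.93, 10.75 and 10.78 in WT samples. The lowest WT sample was 0.20 above the highest p27-/-;Sox2+/- sample, the narrowest gap to WT of the 5 genes, and the lowest p27-/- sample was 0.41 above it. The means were 10.42 ± 0.16, 11.16 ± 0.18 and 10.89 ± 0.17 (± SD, for n = 3, 3 and 4 mice). The log2 fold change was -0.47 (SE 0.11) against WT, or 1.38-fold lower, and -0.73 (SE 0.12) against p27-/-, or 1.66-fold lower. The p27-/- mean was 0.27 (SE 0.11) above WT, on the opposite side from p27-/-;Sox2+/-. The span of Fam49a also holds or overlaps the noncoding RNAs Gm34407 and 4921511I17Rik.

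**Figure D1:**
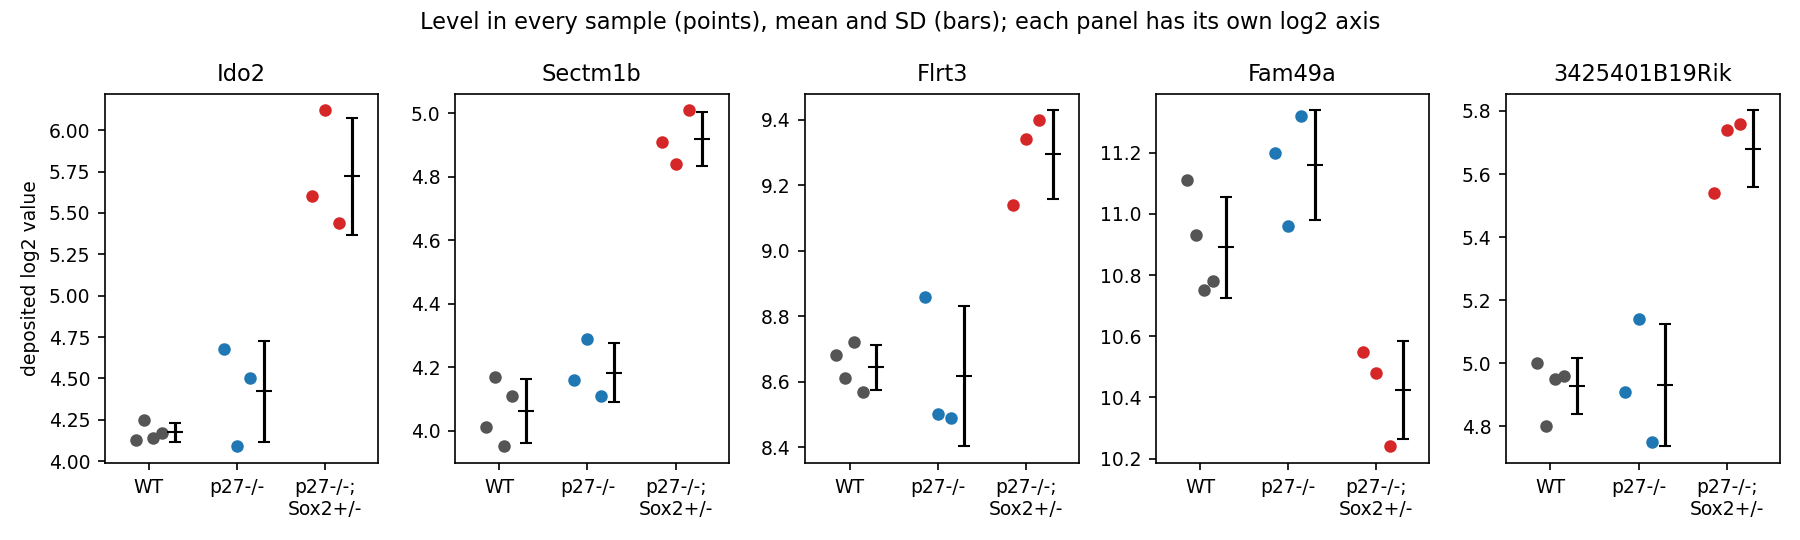
Log2 normalized expression of the 5 genes in each of the 10 samples, with 1 point per mouse, bars for the mean and SD of each genotype and a log2 axis of its own in each panel. The p27-/-;Sox2+/- samples lie above all others for Ido2, Sectm1b, Flrt3 and 3425401B19Rik and below all others for Fam49a.

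Near the threshold, the larger of the adjusted p-values in the comparisons against WT and p27-/- was 0.0453 for Fam49a and 0.0435 for Flrt3, 3425401B19Rik and ENSMUSG00000105265, as given by limma. Just outside were E030010A14Rik (0.0685, with log2 fold changes of 0.72 against WT and 0.83 against p27-/-), Cd24a (0.0728, with -0.39 and -0.72) and Adamts18 (0.0858, with -0.63 and -0.64). These 3 genes shifted by amounts that overlap with those of the genes inside the threshold. Across the table, the p27-/-;Sox2+/- samples all lay above all other samples for 218 tested genes (1.26%) and all below for 168 (0.973%). With 1 p27-/-;Sox2+/- or p27-/- sample left out, between 0 and 2 of the 5 genes met the criterion again, and with 1 WT sample left out between 2 and 5 did. The direction of the 5 genes could not change in these fits, since their p27-/-;Sox2+/- samples overlapped with no other sample.

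**Figure D2:**
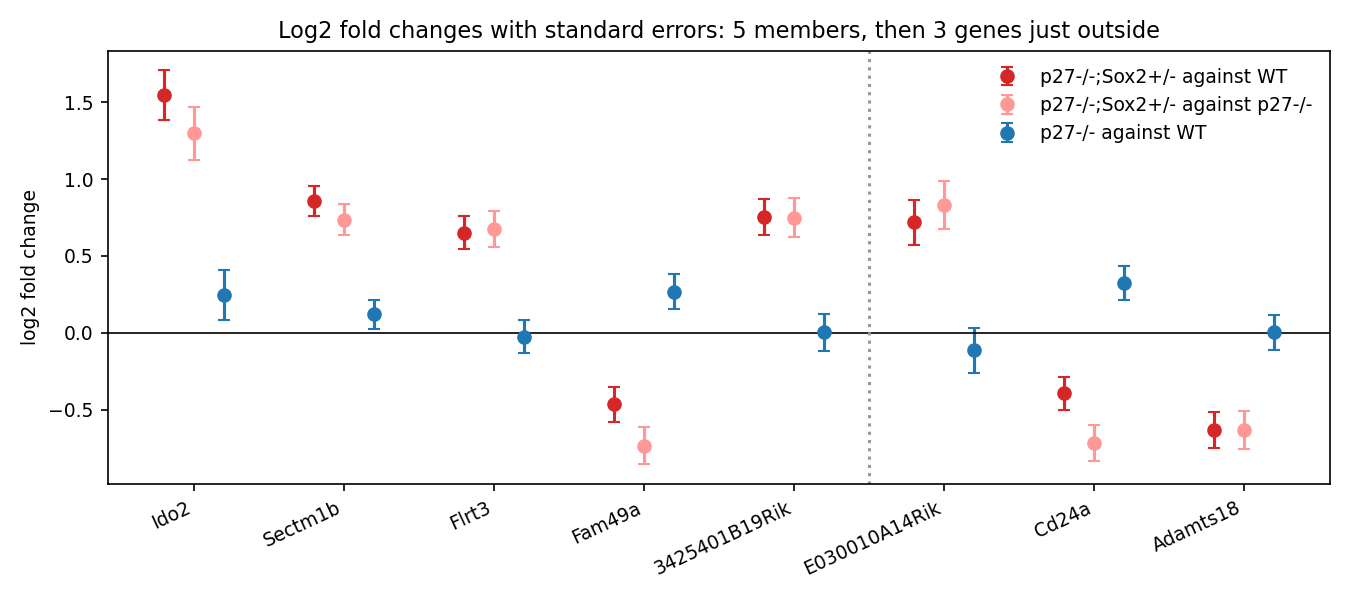
Log2 fold changes (points) with standard errors (bars) of the 5 genes and, right of the dotted line, of the 3 genes just outside the criterion, for p27-/-;Sox2+/- against WT, p27-/-;Sox2+/- against p27-/- and p27-/- against WT. Each p27-/-;Sox2+/- comparison lies on the same side of zero for a given gene, with Ido2 farthest out at 1.55 and 1.3, and p27-/- against WT lies between -0.03 and 0.27 for the 5 genes.

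Over the 10 samples, Pearson's r was 0.86 to 0.94 among the 4 genes that rose, and -0.67 to -0.87 between each of them and Fam49a. All 5 were chosen for the same difference between the same samples, so that these values describe the choice. Once each gene was taken as its deviation from its genotype mean, r ranged from -0.60 (Fam49a and 3425401B19Rik) to 0.48 (Ido2 and Fam49a), and Ido2 and Sectm1b, at 0.90 over the samples, had -0.53.

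Among 14853 other tested genes with a symbol, those most like each of the 5 over the 10 samples were found by Pearson's r. For Ido2 they were Bcl2l11 (0.94), which encodes the pro-apoptotic protein BIM, Msln (0.92), which encodes mesothelin, and Hnrnpd (0.91), which encodes an RNA-binding protein. For Sectm1b they were Pthlh (0.96), the gene of parathyroid hormone-like hormone, Evl (0.95), an actin regulator of the Ena/VASP family, and 3425401B19Rik (0.94). Flrt3 was most like Sparcl1 (0.96), which encodes a secreted matrix protein, Galnt13 (0.93), a glycosyltransferase gene, and Enox1 (0.93). 3425401B19Rik was most like Nadsyn1 (0.94), which encodes NAD synthetase, Slitrk3 (0.94), a synaptic adhesion gene, and Sparcl1 (0.94). Fam49a had the fewest close partners, with 2 genes over 0.9, compared with 6 for Ido2 and 8 for each of the other 3 genes. They were Lrrc59 (0.90) and Wdfy4 (0.90), followed by Slc29a4 (0.89), a monoamine transporter gene. These genes rise or fall with the same samples because they were found that way, and r over 10 samples in 3 groups mostly reflects the group means. Most of them shifted less than the gene they resemble. The 5 genes were chosen for passing the threshold, so that this difference describes the choice. Against p27-/-, the log2 fold change was 0.30 for Bcl2l11, 0.63 for Msln, 0.26 for Pthlh, 0.51 for Evl, 0.39 for Sparcl1 and 0.59 for Slitrk3.

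**Figure D3:**
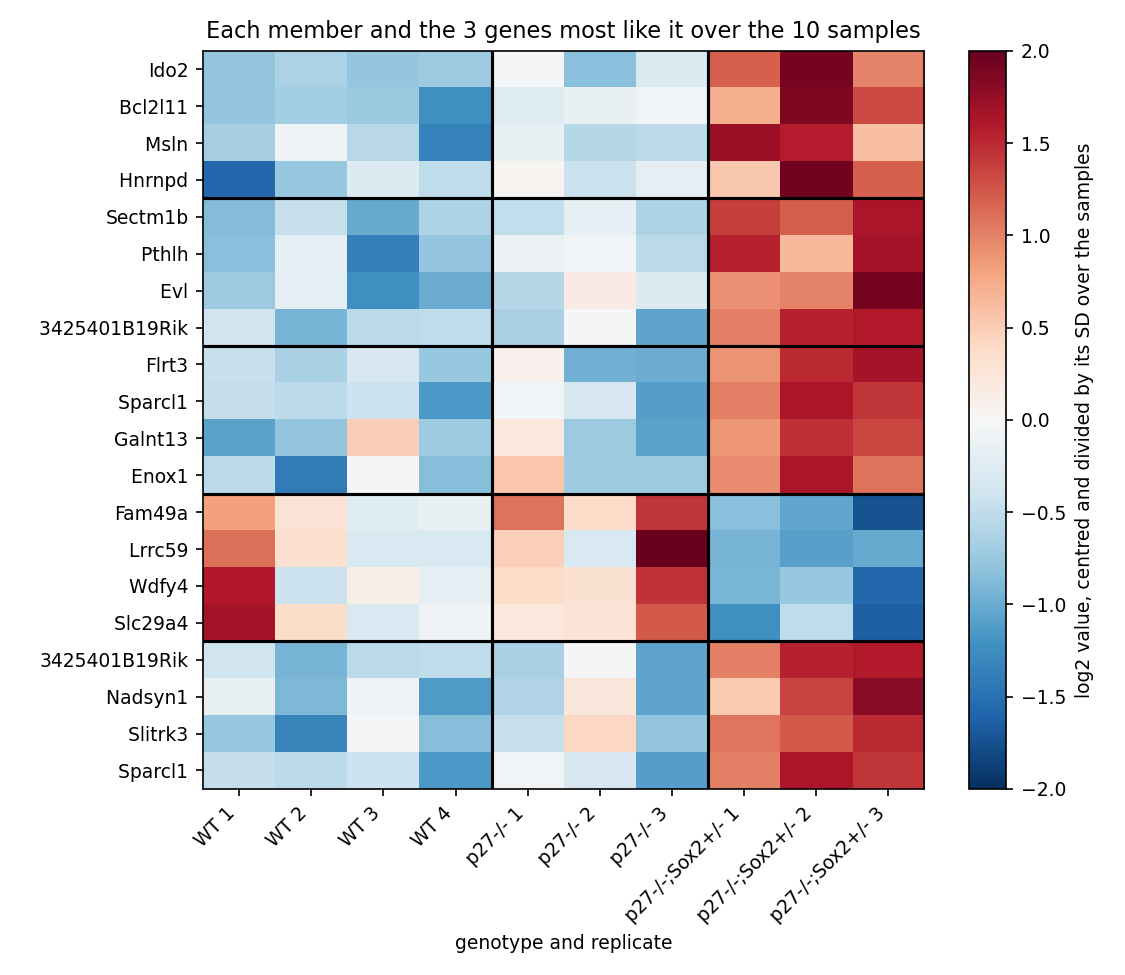
Heat map of the 5 genes, each followed by the 3 tested genes with the highest Pearson's r to it, in the 10 samples (columns, by genotype and replicate), with color giving the log2 value centred and divided by its SD over the samples. The p27-/-;Sox2+/- columns are red for Ido2, Sectm1b, Flrt3 and 3425401B19Rik and their partners and blue for Fam49a and its partners, with r from 0.89 (Slc29a4 with Fam49a) to 0.96 (Pthlh with Sectm1b and Sparcl1 with Flrt3).

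Ido2 acts at the entry of the tryptophan and kynurenine pathway, of which 31 genes were listed and 19 tested. In p27-/-;Sox2+/- against WT, 1 rose (5.26% of the list, compared with 0.828% of all genes) and 0 fell. Against p27-/- 0 were called by limma, with 4 at an unadjusted p under 0.05, which 6.65% of all genes had in that comparison. The median log2 fold change of the list was 0.05 against WT and 0.01 against p27-/-, compared with 0.01 and 0.00 over all tested genes. The gene that rose was Slc16a10, which encodes a transporter of aromatic amino acids. Its means were 4.51 ± 0.19 over the 4 WT mice, 4.76 ± 0.01 over the 3 p27-/- mice and 5.07 ± 0.13 over the 3 p27-/-;Sox2+/- mice (each ± SD, limma log2 fold change 0.55 against WT, SE 0.12, adjusted p = 0.0243), and it lost this call without WT replicate 3, WT replicate 4 or any of the p27-/-;Sox2+/- samples, with an adjusted p of up to 0.0968. Ido1, the neighbouring paralog, was below the filter with log2 values of 1.63 to 1.73 in WT, 1.63 to 1.69 in p27-/- and 1.80 to 1.85 in p27-/-;Sox2+/- samples. Ido1 was thus also at its highest in the p27-/-;Sox2+/- samples, but at a level under which no gene was tested. The genes of the later kynurenine steps Kmo, Haao, Qprt and Aadat were below the filter as well. In p27-/- against WT, 3 genes of the list were called and are named after their values were seen: Ddc, the decarboxylase of aromatic amino acids, rose by 0.70, while Maob, a monoamine oxidase, and Cyp1b1, a target of the aryl hydrocarbon receptor, fell by 0.52 and 0.94. These 3 of 19 stand beside 7.78% of all genes, and with 1 sample left out the count was 0 to 3. Ddc lost its call without WT replicate 4 or p27-/- replicate 1 or 2, Cyp1b1 without WT replicate 3 or 4 or any p27-/- sample, and Maob in 7 of 10 such fits.

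Among the FLRT family and its binding partners, all 19 listed genes were tested. In p27-/-;Sox2+/- against WT, 0 rose and 2 fell (10.5%, compared with 1.88% of all genes). Against p27-/- 0 were called by limma. An unadjusted p under 0.05, which 6.65% of all genes had there, was found for 2 of the 19. They were Flrt1 and Odz3, a teneurin gene also called Tenm3. Against p27-/-, 16 of the 19 lay above zero with a median of 0.10, and against WT 14 lay below zero with a median of -0.06. In p27-/- against WT, 15 lay below zero with a median of -0.21. The medians over all tested genes were -0.004, 0.01 and 0.01. The genes that fell in p27-/-;Sox2+/- against WT were Fgfr1, an FGF receptor that FLRT3 binds, and Robo1, the receptor of SLIT guidance cues. Fgfr1 was 8.87 ± 0.22 over the 4 WT mice, 8.17 ± 0.11 over the 3 p27-/- mice and 8.12 ± 0.19 over the 3 p27-/-;Sox2+/- mice (each ± SD, limma log2 fold change -0.75, adjusted p = 0.00873 against WT). Robo1 was 9.01 ± 0.16, 8.33 ± 0.10 and 8.51 ± 0.09 (± SD, genotypes as for Fgfr1, limma log2 fold change -0.50, adjusted p = 0.0231). Both were also lower in p27-/- than in WT samples (limma, log2 fold change -0.70, adjusted p = 0.0064 for Fgfr1, and -0.68, adjusted p = 0.0025 for Robo1), a comparison in which Flrt3 differed by -0.03. The call of Fgfr1 against WT was lost without p27-/-;Sox2+/- replicate 2 (adjusted p = 0.0665), and that of Robo1 without replicate 1 or 2. The p27-/- samples further had lower Flrt1, Lphn3, a latrophilin gene, and Unc5c, an UNC5 receptor gene, so that 5 of 19 (26.3%, compared with 4.62% of all genes) fell in that comparison. With 1 sample left out this count ranged from 2 to 5. Lphn3 kept its call only without WT replicate 2, Flrt1 lost it without WT replicate 3 or 4 or any p27-/- sample, and Unc5c without WT replicate 4 or p27-/- replicate 2 or 3. Flrt1, a paralog of Flrt3, had log2 values of 10.37, 10.05 and 9.90 in p27-/-;Sox2+/- samples, 9.59, 9.57 and 9.51 in p27-/- samples and 10.04, 9.77, 10.49 and 10.36 in WT samples. Flrt1 was lower in p27-/- than in WT (limma, log2 fold change -0.61, adjusted p = 0.0300), and its difference of 0.55 between p27-/-;Sox2+/- and p27-/- did not pass the threshold (limma, adjusted p = 0.346). Flrt2 differed by -0.23 against WT and 0.04 against p27-/- and was not called.

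Of 25 genes of RAC1 and the WAVE complex, the partners of the Fam49a product, all were tested and 0 were called by limma in any comparison, with 2, 0 and 2 at an unadjusted p under 0.05 in p27-/-;Sox2+/- against WT, p27-/-;Sox2+/- against p27-/- and p27-/- against WT, where 17.8%, 6.65% and 24.1% of all genes had one. Their log2 fold changes ran from -0.23 to 0.24 against WT and from -0.34 to 0.11 against p27-/-, with medians of 0.03 and 0.00. Rac1 was 11.35 ± 0.02 over the 4 WT mice, 11.34 ± 0.08 over the 3 p27-/- mice and 11.40 ± 0.04 over the 3 p27-/-;Sox2+/- mice (each ± SD). Fam49b, the paralog, was 8.37 ± 0.07, 8.62 ± 0.06 and 8.47 ± 0.23 (± SD, for n = 4, 3 and 3 mice). Its log2 fold change of 0.10 against WT and -0.15 against p27-/- was not called (limma, adjusted p = 0.671 and 0.959).

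SECTM1 is known as an interferon-induced protein, and the interferon response was therefore listed with Sectm1b. Of 37 listed genes, 36 were found in the table and 33 tested. By limma 0 were called in any comparison, with 5 in p27-/-;Sox2+/- against WT, 3 against p27-/- and 0 in p27-/- against WT at an unadjusted p under 0.05, beside 17.8%, 6.65% and 24.1% of all genes. Most of the listed genes lay below zero in the comparisons in which Sectm1b was higher. Against p27-/-, 28 of the 33 were below zero with a median of -0.20, and against WT 22 were below zero with a median of -0.17, beside 0.00 and 0.01 over all tested genes. Those with an unadjusted p under 0.05 against p27-/- were Gbp2 and Iigp1, which encode interferon-induced GTPases, at -0.43 and -0.71, and Cxcl9, a chemokine gene, at -0.64, all named after their values were seen. Macrophage and dendritic markers summed to 386 to 482 in p27-/-;Sox2+/-, 462 to 509 in p27-/- and 418 to 672 in WT samples, on the linear scale, and their part in these values was not tested. Cd7, the gene of the receptor of SECTM1, lies 13.9 kb from Sectm1b and had means of 4.29 ± 0.08 over the 4 WT mice, 4.43 ± 0.15 over the 3 p27-/- mice and 4.31 ± 0.17 over the 3 p27-/-;Sox2+/- mice (each ± SD, limma log2 fold change 0.02, adjusted p = 0.958 against WT). The paralog Sectm1a was below the filter, with log2 values between -0.84 and -0.78 in all 10 samples.

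Of 21 genes of FHL2, the Z-disc and calcineurin signalling, 20 were found and 15 tested. In the comparisons of p27-/-;Sox2+/- with WT and with p27-/-, 0 were called by limma. At an unadjusted p under 0.05 there were 4 and 1, beside 17.8% and 6.65% of all genes. The medians of the list were -0.10 and 0.04, against a log2 fold change of 0.75 for 3425401B19Rik in each. In p27-/- against WT, 1 gene fell (6.67% of the list, compared with 4.62% of all genes). It was Rcan2, which encodes a calcineurin regulator and is named after its value was seen (limma, log2 fold change -0.96, adjusted p = 0.0291). Rcan2 lost this call without WT replicate 4 or any p27-/- sample. The Z-disc genes Tcap, Myoz1 and Myoz2 and the intermediate filament gene Des were below the filter.

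**Figure D4:**
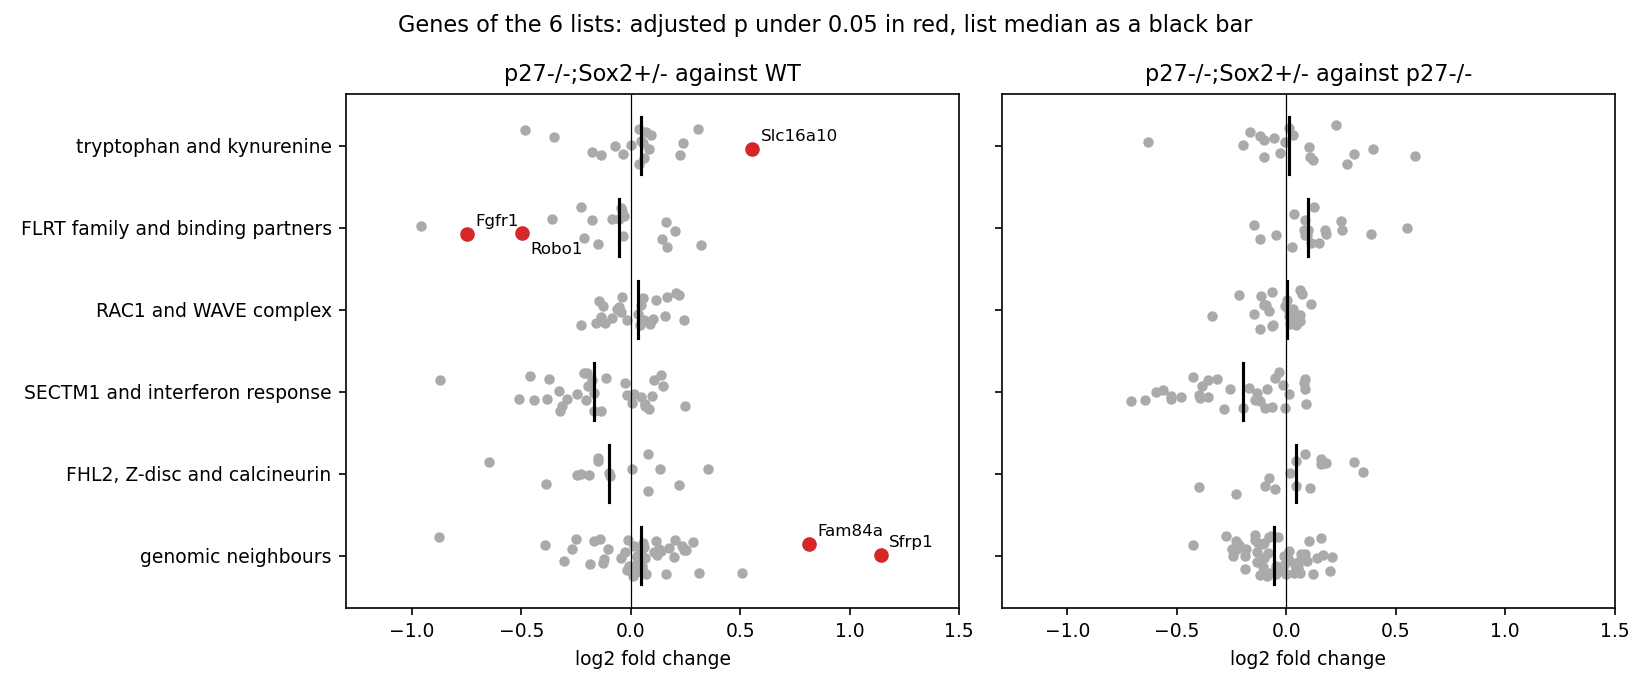
Log2 fold changes of the tested genes of the 5 pathway lists and of the genomic neighbours (rows) in p27-/-;Sox2+/- against WT (left) and against p27-/- (right), with 1 point per gene, a black bar at the list median and called genes in red. The called genes are Slc16a10, Fgfr1, Robo1, Fam84a and Sfrp1, all against WT, and the medians lie between -0.20 and 0.10.

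The genes beside the 5 on their chromosomes were examined next. The 5 nearest tested genes on each side, 50 in all, held 2 that rose in p27-/-;Sox2+/- against WT (4%, compared with 0.828% of all genes). In that comparison 0 fell. Against p27-/- 0 were called by limma, with 2 at an unadjusted p under 0.05, which 6.65% of all genes had. The nearest tested neighbours of Ido2, 1810011O10Rik and Adam3, differed from WT by -0.25 and -0.05, and Cd7 and 1110031I02Rik beside Sectm1b by 0.02 and 0.12. Beside Flrt3, Macrod2 and Gm14080 differed by 0.13 and -0.19. Vsnl1 and Mycn beside Fam49a differed by -0.39 and 0.11, and Ercc6 and E130203B14Rik beside 3425401B19Rik by 0.02 and 0.01. None of these 10 genes was called against WT or p27-/-. The paralogs Ido1, between Ido2 and Adam3, and Sectm1a, between Sectm1b and 1110031I02Rik, lie closer but were below the filter and are not among them. The neighbours that rose against WT were Sfrp1, which encodes a secreted WNT antagonist and lies 1082 kb from Ido2, and Fam84a, 1767 kb from Fam49a. Sfrp1 was 6.89 ± 0.36 over the 4 WT mice, 8.13 ± 0.11 over the 3 p27-/- mice and 8.03 ± 0.10 over the 3 p27-/-;Sox2+/- mice (each ± SD, limma log2 fold change 1.14 against WT, adjusted p = 0.00405). Fam84a was 5.42 ± 0.25, 6.48 ± 0.03 and 6.24 ± 0.23 (± SD, for n = 4, 3 and 3 mice, limma log2 fold change 0.81 against WT, adjusted p = 0.0124), and lost this call without p27-/-;Sox2+/- replicate 2 or 3. Both also rose in p27-/- against WT (limma, log2 fold change 1.24, adjusted p = 0.00084 for Sfrp1, and 1.06, adjusted p = 0.00146 for Fam84a), in which 6 of the 50 neighbours (12%, compared with 7.78% of all genes) were called, or 2 to 7 with 1 sample left out. Sfrp1 and Fam84a kept that call with each sample left out. Rpl23a-ps3, a pseudogene near 3425401B19Rik and named after its value was seen, had a log2 fold change of -0.88 against WT and was not called (limma, adjusted p = 0.322).

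**Figure D5:**
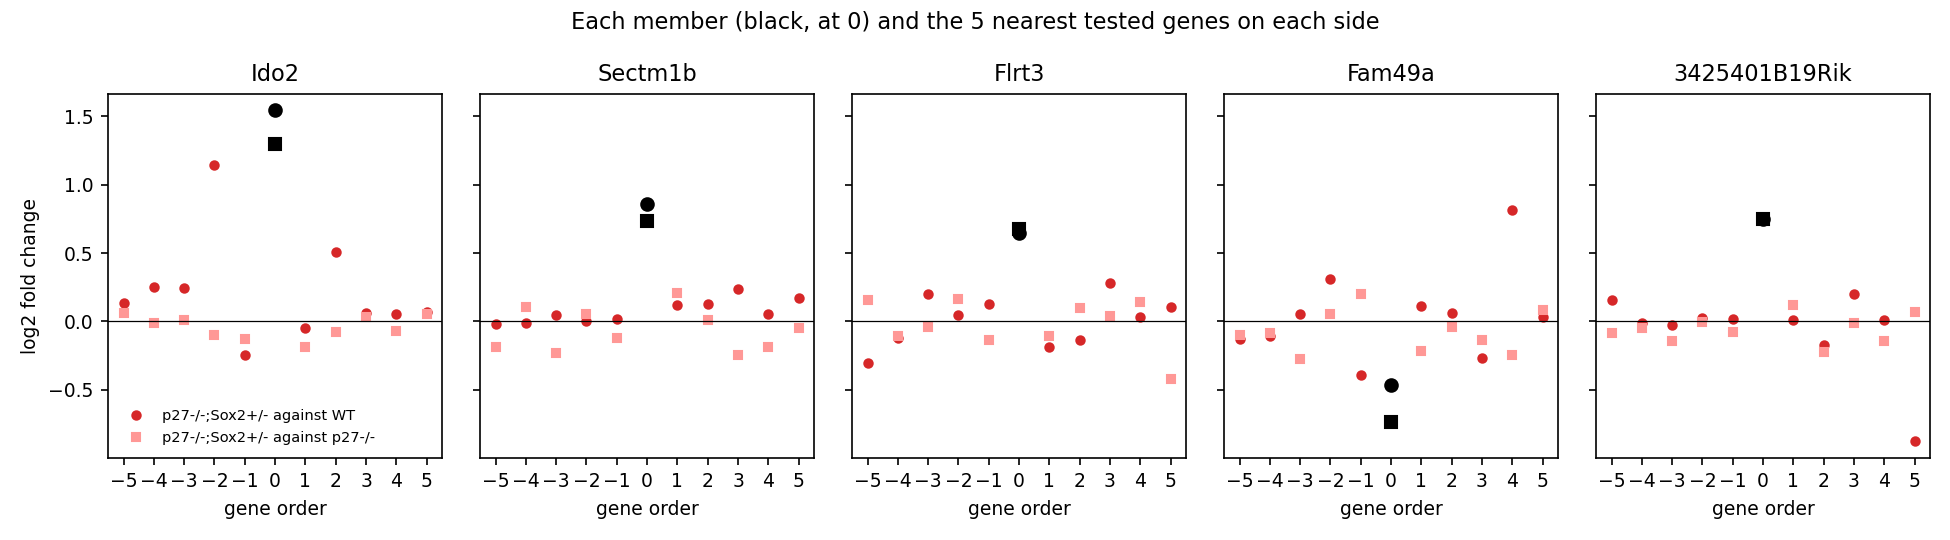
Log2 fold changes in p27-/-;Sox2+/- against WT (circles) and against p27-/- (squares) for each of the 5 genes (black, order 0) and the 5 nearest tested genes on either side, in chromosomal order. Most neighbours lie near zero, and the farthest are Sfrp1 (1.14) near Ido2, Fam84a (0.81) near Fam49a and Rpl23a-ps3 (-0.88) near 3425401B19Rik, all against WT.

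All 7 melanotroph markers were above the filter in this tissue. In bulk RNA, a change in the number of cells of a type and a change of RNA per cell cannot be told apart, and the cells that express the 5 genes were not identified. Melanotroph markers had summed linear levels of 379690 to 425027 in p27-/-;Sox2+/-, 442068 to 583993 in p27-/- and 300964 to 572441 in WT samples, mostly from Pomc, and stem cell markers 917 to 1033, 785 to 989 and 969 to 1148. Anterior lobe markers varied most, from 7002 to 222704 over the 10 samples, and were at 10863 to 28963 in p27-/-;Sox2+/- samples. Lymphocyte markers summed to 39.4 to 50.8, with 1 of 9 above the filter. Pituicyte markers of the posterior lobe summed to 1350 to 4816 in p27-/-;Sox2+/-, 1873 to 2053 in p27-/- and 1195 to 5582 in WT samples, endothelial and mural markers to 856 to 1227, 850 to 1130 and 1088 to 2066, and fibroblast markers to 1601 to 2774, 1487 to 2959 and 2371 to 3215. Of single markers, 3 were lower in p27-/-;Sox2+/- than in WT samples by limma: Fshb, a gonadotrope hormone gene (log2 fold change -2.27, adjusted p = 0.0294), Pcsk1, a prohormone convertase gene (-0.42, adjusted p = 0.0498), and Kdr, an endothelial receptor gene (-0.67, adjusted p = 0.0459). All 3 were also lower in p27-/- than in WT samples (limma, -2.04, -0.45 and -0.83, adjusted p = 0.0280, 0.0206 and 0.00966). Against p27-/-, none of the 7 melanotroph markers passed the threshold. The largest log2 fold changes were -0.60 for 5330437I02Rik, also called Oacyl (limma, adjusted p = 0.0986), -0.42 for Pcsk2 and -0.34 for Pomc. For each of these, all p27-/-;Sox2+/- samples lay below all p27-/- samples, with gaps of 0.27, 0.18 and 0.025. The gap of Pomc was thus close to nil, and the share of all genes that separate in this way was not computed. Pax7, Tbx19, Drd2 and Pcsk1 differed by -0.04, 0.08, 0.00 and 0.04 against p27-/-. In p27-/- against WT, 5330437I02Rik and Pcsk2 were called higher (limma, log2 fold change 0.77, adjusted p = 0.00161, and 0.53, adjusted p = 0.0352). Pomc differed by 0.31 there and was not called (limma, adjusted p = 0.454). In p27-/-;Sox2+/- against WT, 5330437I02Rik, Pcsk2 and Pomc differed by 0.18, 0.11 and -0.03 and were not called. The part of cell composition in the values of the 5 genes was not tested.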

How the data were processed

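Bulk RNA of dissected IL was sequenced in 4 WT, 3 p27-/- and 3 p27-/-;Sox2+/- mice. The authors aligned reads with STAR 2.5.2a, counted them per gene with RSEM 1.3.30 without strand on the Ensembl GRCm38 transcriptome, normalized the counts with DESeq2 1.18.1 and deposited log2 values from -1.89 to 21.5. The transformation is not given in the sources used here. Genes with the lowest values hardly vary between samples, so that changes of low genes such as Ido2 and Sectm1b may be understated. The reads behind each sample are unknown, so that precision rests on the number of mice.

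Samples were grouped by their genotype labels. Genes whose mean log2 value was at least 3.32 (10 on the linear scale) were compared by limma 3.58.1 (R 4.3.3) in 1 fit of the 10 samples with a trended prior variance, and p-values were adjusted by the Benjamini-Hochberg method over 17268 genes. The fit was also run on simulated normal values drawn independently for each gene and sample, which need not hold for the deposited values. Symbols were matched for 22709 of 29527 genes and GRCm38 positions for 20041. The labels do not say how mice relate to litters. The members and the gene lists were chosen with earlier results of these data known. Named genes are the 5 genes, the label checks, the 3 genes just outside the criterion, list genes and neighbours called in either p27-/-;Sox2+/- comparison, paralogs, nearest neighbours and the 3 most correlated genes; others are marked in the text. Alternatives were another filter or none, quantile normalization, array weights, a fit of only the groups compared, Xist as a covariate, the replicate number as a block and each sample left out. Protein sequences were not used here. Tables and plots were made in Python 3.11.15 with pandas 2.3.3, numpy 2.4.6 and matplotlib 3.10.9.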

Additional observations from a re-analysis of the deposited data

Results flagged for a closer look

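Of 44 named genes, 6 had a WT sample far from the other 3 by Dixon's ratio of the gap to the range, taken at its 95% critical value, where chance gives about 1 in 20, or 2.2. None was among the 5 genes described, and groups of 3 were not tested. WT replicate 4 stood apart for 1110031I02Rik beside Sectm1b (ratio 0.948, lowest at 7.54 against 7.72 to 7.74), for Sparcl1, the gene most like Flrt3 (0.887, lowest at 11.76 against 11.89 to 11.91), and for Ido1 (0.933, highest at 1.73 against 1.63 to 1.64). WT replicate 1 was highest for Cd24a (0.843, 12.21 against 11.78 to 11.85), WT replicate 2 lowest for Vsnl1 (0.85, 4.92 against 5.52 to 5.62) and WT replicate 3 highest for Sox2 (0.885, 7.75 against 7.34 to 7.39).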

How the results depend on the processing

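Over the alternatives run, log2 fold changes against WT and p27-/- were 1.35 to 1.74 and 1.10 to 1.55 for Ido2. They were 0.79 to 0.91 and 0.69 to 0.79 for Sectm1b, and 0.60 to 0.73 and 0.61 to 0.80 for Flrt3. For 3425401B19Rik they were 0.71 to 0.82 and 0.66 to 0.85, and for Fam49a -0.53 to -0.38 and -0.83 to -0.64. The 5 genes were chosen for these differences, so that a kept direction is no separate evidence for them. Whether they met the criterion depended on the setting: 5 did with Xist as a covariate or array weights, 4 in a fit of only the groups compared (not Fam49a) and with quantile normalization (not 3425401B19Rik), and 2 without a filter (Ido2 and Sectm1b). At a mean of at least 50 only Flrt3 and Fam49a were tested, and both met it.

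With array weights 1240 genes were called against WT, 283 against p27-/-, and 47 met the criterion; the FLRT list had 4 calls against WT and 2 against p27-/-, the interferon list 1 against p27-/- and the FHL2 list 1 against WT. In a fit of only the groups compared, 260 genes were called against WT, 45 against p27-/- and 807 in p27-/- against WT, 9 met the criterion, and the tryptophan list had 0 calls against WT. A mean of at least 50 left 3 genes at the criterion and 0 calls in the tryptophan list. Without a filter 6 genes were called against p27-/-, 831 in p27-/- against WT, and 2 met the criterion. Quantile normalization gave 15 calls against p27-/-. The cause of these moves was not tested.

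Same-numbered samples of different genotypes deviated together at r over 0.1 in 1 of 9 pairs. Their r ran from -0.24 to 0.18, compared with -0.19 to 0.26 for other pairs, which gave no sign of pairing by number. Deviations from the mean of so few samples depend on each other, so that these r cannot decide whether the numbers pair the samples. With the replicate number as a block, 209 genes were called against WT, 2 against p27-/- and 595 in p27-/- against WT, 0 met the criterion, and the tryptophan list had 0 calls.

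With 1 sample left out, 79 to 656 genes were called against WT, 0 to 41 against p27-/- and 402 to 1707 in p27-/- against WT, and 0 to 12 met the criterion. No gene met it without p27-/- replicate 2 or 3 or p27-/-;Sox2+/- replicate 1 or 2, only Ido2 without p27-/-;Sox2+/- replicate 3, Ido2 and Flrt3 without p27-/- replicate 1, and Ido2 and Sectm1b without WT replicate 4. Calls against WT ranged over 0 to 1 in the tryptophan list, 0 to 3 in the FLRT list, 0 to 1 in the interferon list and 1 to 2 among neighbours.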
